A study of Rattus norvegicus with 12 samples.

Results

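Genes of antigen processing for major histocompatibility complex (MHC) class I, together with the co-stimulatory ligand gene Cd80, were followed in cultured heart muscle cells that had received forms of the transcription factor MEF2C. A list of 10 genes was read: Tap1, Tap2, Tapbp, Psmb8, Psmb9, Psmb10, B2m, Nlrc5, Erap1 and Cd80. A probe set was taken for a gene where the array's probe table gave that symbol alone. Of the 10 genes, 9 had such a probe set, 1 each, and all 9 were among the 10025 genes tested. No probe set carried the symbol Nlrc5, which encodes a transcriptional activator of class I genes, so Nlrc5 was not analysed here. Their mean over the 12 arrays had to exceed log2 4.78 to enter the tests, and for each of the 9 genes the mean of every group exceeded it, the lowest being 4.85 for Psmb8 in the γ- group.

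The cells were ventricular cardiomyocytes of newborn Wistar rats, plated for 44 h and then kept for 24 h without serum. The 4 groups of 3 arrays each were untreated cultures (control) and cultures given adenovirus for mef2Cγ+ (γ+ group), for mef2Cγ- (γ- group) or for mef2Cγ+23/24 (23/24 group), where the labels give 23/24 as a name and no definition. The γ segment of MEF2C is included or skipped by alternative splicing and is known as a repressor domain. Every group other than the control carried adenovirus, and no group received a virus without an insert, so each difference from control includes whatever the virus itself did. The labels call the arrays biological replicates without naming separate isolations, and p-values therefore measure the spread between these samples, which may be technical. All 10 cardiomyocyte markers were above the filter, as were 10 of 10 fibroblast and 9 of 9 endothelial markers on the array.

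In nearly all nucleated cells, the proteasome cuts proteins into peptides, the transporter formed by TAP1 and TAP2 carries them into the endoplasmic reticulum, tapasin (encoded by Tapbp) holds the transporter next to empty class I molecules, and the peptidase ERAP1 trims the peptides before they bind. Class I molecules consist of a heavy chain and β2-microglobulin (B2m). Interferons raise many of these genes and exchange the catalytic proteasome subunits for the immunoproteasome subunits PSMB8, PSMB9 and PSMB10. CD80 is a ligand of CD28 and CTLA4 on T cells and is best known on dendritic cells, macrophages and B cells. Cardiomyocytes are known to display little class I in the healthy heart.

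Most of the genes rose in the γ+ group, and few were called in the other viral groups. Against control, 7 of the 9 genes were higher in the γ+ group and 0 were lower (called at a limma adjusted p under 0.05), from Erap1 at a log2 fold change of 0.18 to Cd80 at 2.50. Tap2 and B2m were not called. Among all genes tested, 26.2% were higher and 38.7% were lower in that comparison. The median log2 fold change of the 9 genes was 0.54, against -0.07 for all genes. After each array was shifted to a common median, 3187 of all genes were higher and 3041 lower, where the deposited scale gave 2631 and 3878, and the 9 genes kept the count of 7 higher and 0 lower. In the γ- group 1 gene, Cd80, was higher than in the control and 0 were lower, where 3.06% of all genes were higher and 3.88% lower. At an unadjusted p under 0.05, 1 of the 9 was higher and 2, Psmb8 and Tap2, were lower. That threshold held 2288 of all genes (22.8%), in either direction. In the 23/24 group limma called 0 of the 9 genes, with 0% of all genes higher and 0% lower. At an unadjusted p under 0.05 that comparison held 899 genes (8.97%), among them Cd80 and B2m, both higher. Weighting the arrays by their quality in limma called 68 genes higher and 152 lower there, Cd80 among them, and quantile normalization called 1 gene.

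**Figure D1:**
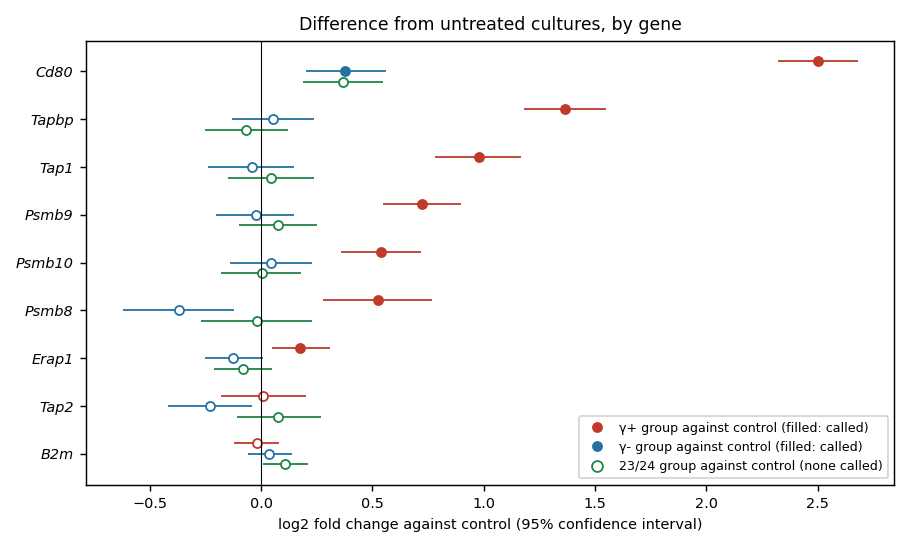
Log2 fold change of each gene against the untreated control for the γ+ group (red), the γ- group (blue) and the 23/24 group (green), with 95% confidence intervals from limma (n = 3 arrays per group). Filled points were called, with 7 genes in the γ+ group, Cd80 in the γ- group and no gene in the 23/24 group.

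The γ+ group was also set directly against the other viral groups, which carried adenovirus as well. Against the γ- group, 8 of the 9 genes were higher and 0 lower, where 26.7% of all genes were higher and 37.5% lower. Against the 23/24 group, 7 were higher and 1, B2m, was lower, where 28.0% of all genes were higher and 37.9% lower. These comparisons share the γ+ arrays, so their counts are not separate evidence. Between the γ- and 23/24 groups, 0 were higher and 1, Tap2, was lower, where 4.16% of all genes were higher and 3.94% lower. On a common median 698 of all genes were higher and 198 lower in that last comparison, where the deposited scale gave 417 and 395. In the γ+ group against the 23/24 group the common median gave 3703 higher and 2628 lower, where the deposited scale gave 2804 and 3795, and it moved the median of all genes from -0.07 to 0.07. A moderated F test over all groups called 8 of the 9 genes (B2m had an adjusted p of 0.11) and 70.3% of all genes. Cd80, Tapbp, Tap1, Psmb8, Psmb9 and Psmb10 kept their calls in each γ+ comparison under every alternative run in which they were tested.

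The arrays appear to have been normalized in 3 runs by the submitters, since identical values were shared by all 21 pairs of arrays drawn from 1 of 3 sets (control with 23/24, γ+, γ-) and by 0 of 45 other pairs. No label names such runs, which were inferred from the values alone. Of the comparisons, the 23/24 group against control alone lay within an apparent run. For the others, the apparent run and the group cannot be told apart, and quantile normalization over all 12 arrays was the check made. Array medians ran from 5.33 to 5.53, and differences between arrays of 1 group had an SD of 0.200 to 0.293 over probe sets (log2). Markers of the cardiomyocytes themselves and of other cells in the cultures also differed. The log2 of the summed level of 10 cardiomyocyte markers was 15.41 to 15.47 in the control and 14.53 to 14.56 in the γ+ arrays, and that of 10 fibroblast markers 13.81 to 13.84 and 12.55 to 12.63. For 9 endothelial markers it was 9.64 to 9.66 in the control and 8.82 to 8.94 in the γ+ arrays. In such cultures, fewer cells of a type and less RNA per cell cannot be told apart, and the part of these shifts in the other results was not tested.

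**Figure D2:**
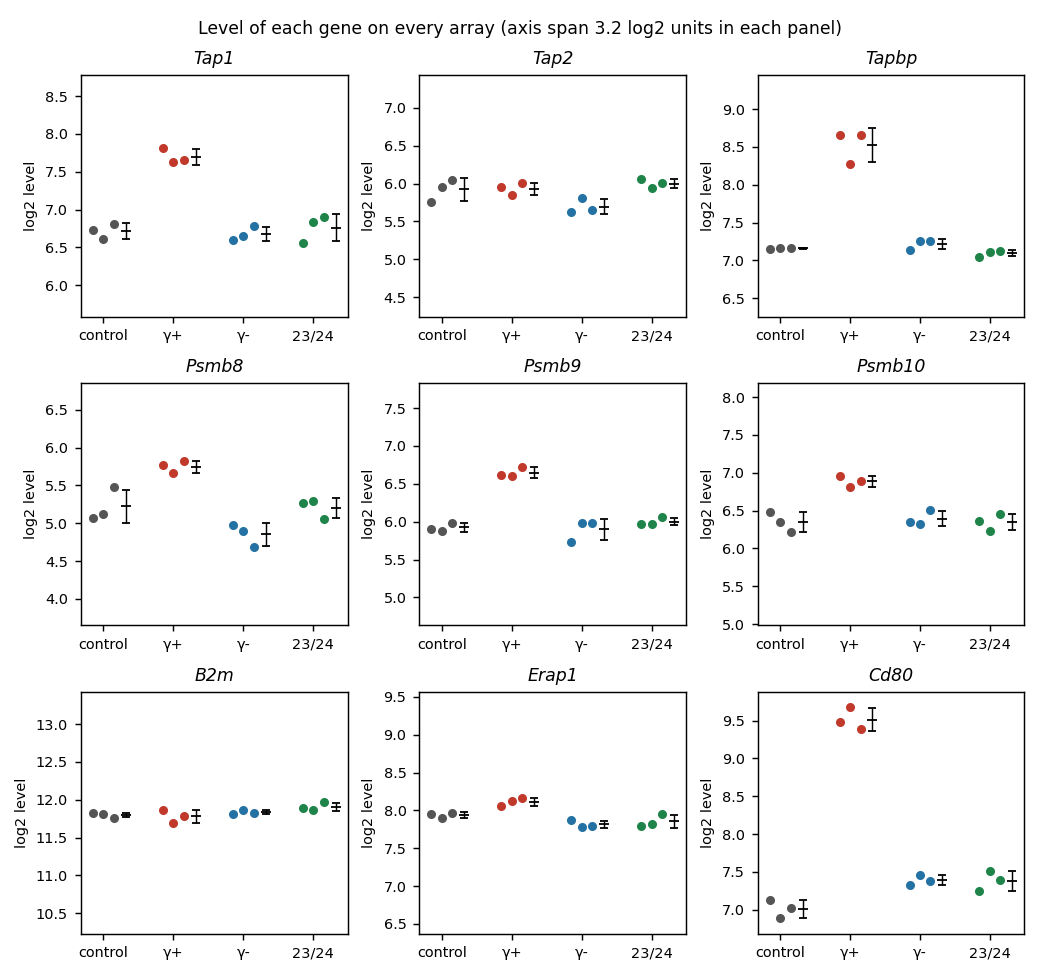
Deposited log2 level of the 9 genes on each of the 12 arrays, with the mean and SD of each group of 3 beside the points; every panel spans the same number of log2 units. Against control, 7 of the 9 genes were called higher in the γ+ group (red), and Tap2 and B2m were not called. Of all genes, 26.2% were called higher and 38.7% lower. In that comparison 64.9% of all genes were called, higher or lower.

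The peptide transporter changed in 1 of its 2 subunits. Tap1 stood at 6.73, 6.61 and 6.82 in the control arrays, 7.81, 7.62 and 7.65 in the γ+ arrays, 6.60, 6.64 and 6.78 in the γ- arrays and 6.56, 6.83 and 6.90 in the 23/24 arrays. All γ+ arrays lay above all others, and the other 3 groups overlapped. The rise against control was 0.98 ± 0.09 (log2, SE), a fold of 1.97, with a limma adjusted p of 9.7e-08. Tap2 stood at 5.76, 5.96 and 6.05 in the control, 5.95, 5.85 and 6.003 in the γ+ group, 5.63, 5.81 and 5.65 in the γ- group and 6.05, 5.95 and 6.003 in the 23/24 group. Its γ+ arrays overlapped the control arrays, and the difference of 0.01 had a 95% confidence interval of -0.18 to 0.20, which leaves out a rise of the size seen for Tap1. Tap2 was lowest in the γ- group, 0.30 below the 23/24 group (adjusted p = 0.046) and 0.24 below the γ+ group (adjusted p = 0.028), while its difference from control of -0.23 was not called (adjusted p = 0.14). The first call was lost under median centring, quantile normalization and the replicate block and without 5 of the 6 arrays left out in turn. The second was lost without γ+ replicate 1 (0.068), γ+ replicate 3 (0.096), γ- replicate 1 (0.096) or γ- replicate 3 (0.086).

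In the rat genome, Tap2, Psmb8, Tap1 and Psmb9 follow each other in this order in the MHC region of chromosome 20. The windows around the transcript starts of Tap1 and Psmb9, which are read away from each other, share 44 bases at chr20:4668750-4668793. Their upstream sequences are printed because both rose in the γ+ group and share a window, and that of Tap2, chosen after its values were seen, for its partner role to Tap1. The sequences are from RefSeq (GRCr8), 250 bases up to the transcript start, 5′ to 3′ on the gene's own strand, with motif matches in capitals: Tap1 from chr20:4668544-4668793 (minus strand), Psmb9 from chr20:4668750-4668999 (plus strand) and Tap2 from chr20:4652297-4652546 (minus strand).
Tap1: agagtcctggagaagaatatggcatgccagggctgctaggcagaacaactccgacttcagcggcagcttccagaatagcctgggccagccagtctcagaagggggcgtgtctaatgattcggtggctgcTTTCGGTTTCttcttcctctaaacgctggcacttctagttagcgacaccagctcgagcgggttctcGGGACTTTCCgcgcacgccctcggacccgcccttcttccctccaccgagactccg
Psmb9: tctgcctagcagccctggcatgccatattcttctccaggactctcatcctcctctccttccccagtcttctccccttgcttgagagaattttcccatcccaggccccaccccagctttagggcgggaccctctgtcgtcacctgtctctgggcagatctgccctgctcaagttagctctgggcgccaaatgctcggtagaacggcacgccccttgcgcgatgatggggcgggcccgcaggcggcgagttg
Tap2: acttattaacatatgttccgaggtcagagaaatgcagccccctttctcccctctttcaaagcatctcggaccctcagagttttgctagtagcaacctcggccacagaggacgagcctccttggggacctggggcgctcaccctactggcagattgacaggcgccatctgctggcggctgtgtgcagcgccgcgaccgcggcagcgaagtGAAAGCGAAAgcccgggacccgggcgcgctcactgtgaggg
The motifs searched on both strands were the core of the interferon-stimulated response element (ISRE: GAAA, any 2 bases, then GAAA), the core of the gamma-activated site (TTCNNNGAA, which reads the same on both strands), a κB form (GGG, any 2 bases, then TTTCC) and the MEF2 consensus. The Tap1 sequence held an ISRE core at -121 to -112 on the opposite strand and a κB form at -55 to -46, counted from the transcript start as 0. The Tap2 sequence held an ISRE core at -41 to -32. The Psmb9 window held none of the 4 motifs. The ISRE core printed with Tap1 lies in the stretch between both genes, 336 to 345 bases upstream of the Psmb9 start and so outside the Psmb9 window.

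The 3 immunoproteasome subunits were all higher in the γ+ group. Psmb9, the caspase-like subunit's inducible form, stood at 5.91, 5.88 and 5.99 in the control, 6.62, 6.60 and 6.73 in the γ+ group, 5.74, 5.99 and 5.98 in the γ- group and 5.97, 5.97 and 6.06 in the 23/24 group. It rose by 0.73 ± 0.08 against control (fold 1.65, adjusted p = 8e-07). Psmb10, the inducible trypsin-like subunit, stood at 6.48, 6.35 and 6.22 in the control, 6.95, 6.81 and 6.89 in the γ+ group, 6.35, 6.32 and 6.51 in the γ- group and 6.36, 6.24 and 6.45 in the 23/24 group. For both genes the γ+ arrays stood apart and the rest overlapped. The rise of Psmb10 was 0.54 ± 0.09 (fold 1.45, adjusted p = 4e-05).

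Psmb8, the inducible chymotrypsin-like subunit, was called higher in the γ+ group and had its lowest values in the γ- group, where no fall was called. It stood at 5.07, 5.12 and 5.47 in the control, 5.77, 5.66 and 5.82 in the γ+ group, 4.98, 4.89 and 4.69 in the γ- group and 5.26, 5.30 and 5.05 in the 23/24 group. Every γ+ array lay above every control array, and every γ- array below every control and every 23/24 array. The γ- levels lay near the filter cutoff of 4.78, with replicate 3 below it. The rise in the γ+ group was 0.53 ± 0.12 (fold 1.44, adjusted p = 0.00089). The difference of the γ- group from control, -0.37 ± 0.12, was not called (adjusted p = 0.069) and was called with array weights (0.04). The γ+ and γ- groups differed from each other by 0.90 ± 0.12 (fold 1.86, adjusted p = 4.8e-06), where Psmb9 differed by 0.75 and Psmb10 by 0.49.

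The constitutive subunits that these replace, Psmb5, Psmb6 and Psmb7, were read as partners. Psmb5 and Psmb6 rose in the γ+ group by 0.29 and 0.22 (limma adjusted p of 0.00056 and 0.0056), and Psmb7 was at 0.03 (adjusted p = 0.69); under quantile normalization Psmb7 was called higher as well. The ratio of each inducible subunit to its partner was then taken on each array, a comparison added after the values had been seen, in which any shift common to an array cancels on the log2 scale. The log2 ratio of Psmb9 to Psmb6 was 0.50 higher in the γ+ group than in the control (SD 0.10 and 0.02, n = 3 each), and that of Psmb10 to Psmb7 0.51 higher (SD 0.07 and 0.08). The γ+ and control arrays did not overlap in either ratio. The ratio of Psmb8 to Psmb5 was 0.24 higher in the γ+ arrays, whose range of 0.11 to 0.34 overlapped the control range of -0.18 to 0.30. It changed by -0.37 in the γ- arrays, at -0.59 to -0.24, where Psmb8 itself lay near the filter cutoff. The same ratio of Tap1 to Tap2 was 0.97 higher in the γ+ group (SD 0.11 and 0.16). With 3 arrays against 3, the exact permutation test (in both directions) cannot go below p = 0.1. That value was reached for Tap1 to Tap2, Psmb9 to Psmb6 and Psmb10 to Psmb7 in the γ+ group, for Psmb8 to Psmb5 in the γ- group and for Psmb9 to Psmb6 in the 23/24 group (0.09 higher), and it was 0.24 after Benjamini-Hochberg adjustment over the 12 ratios tested. For Psmb8 to Psmb5 in the γ+ group the exact permutation p was 0.3 (adjusted 0.514).

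**Figure D3:**
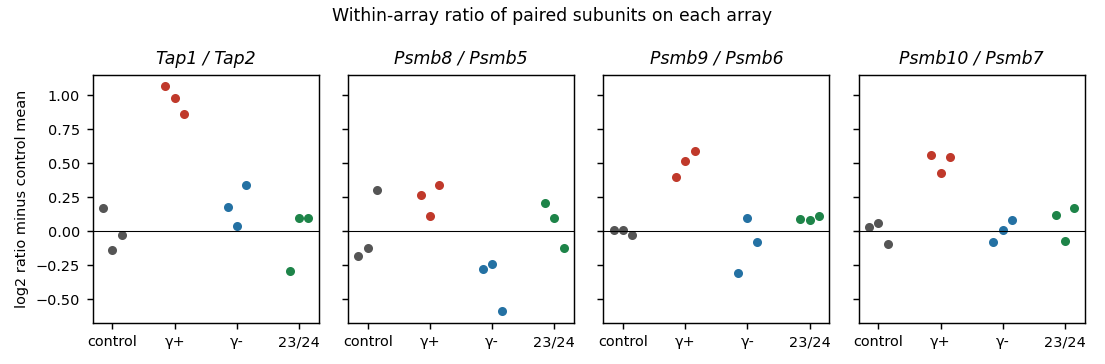
Log2 ratio of paired subunits on each array, less the mean of the control arrays, for Tap1 over Tap2 and for each immunoproteasome subunit over its constitutive partner. The γ+ arrays (red) lie at 0.86 to 1.07 for Tap1 over Tap2 and overlap the control arrays for Psmb8 over Psmb5.

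Tapbp, which encodes tapasin, rose more than any of the other class I pathway genes followed here. It stood at 7.15, 7.17 and 7.17 in the control, 8.66, 8.27 and 8.65 in the γ+ group, 7.13, 7.25 and 7.26 in the γ- group and 7.05, 7.11 and 7.12 in the 23/24 group. All γ+ arrays lay more than a log2 unit above every other array, the γ+ array of replicate 2 being the nearest. The rise against control was 1.37 ± 0.09 (fold 2.58, adjusted p = 8.3e-10), rank 133 from the top of the 10025 genes. The difference was 1.31 against the γ- group and 1.43 against the 23/24 group. Tapbp lies in the MHC region of chromosome 20 apart from the Tap and Psmb genes, and Psmb10 lies on chromosome 19. Their upstream sequences are shown as the ones with the most matches to the ISRE core, a choice made after the values had been seen: Tapbp from chr20:4967878-4968127 and Psmb10 from chr19:50743293-50743542, both on the minus strand.
Tapbp: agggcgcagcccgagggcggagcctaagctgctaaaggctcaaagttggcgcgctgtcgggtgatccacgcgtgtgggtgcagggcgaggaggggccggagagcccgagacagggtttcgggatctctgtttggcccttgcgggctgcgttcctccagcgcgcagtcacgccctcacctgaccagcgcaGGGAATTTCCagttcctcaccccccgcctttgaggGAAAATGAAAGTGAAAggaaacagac
Psmb10: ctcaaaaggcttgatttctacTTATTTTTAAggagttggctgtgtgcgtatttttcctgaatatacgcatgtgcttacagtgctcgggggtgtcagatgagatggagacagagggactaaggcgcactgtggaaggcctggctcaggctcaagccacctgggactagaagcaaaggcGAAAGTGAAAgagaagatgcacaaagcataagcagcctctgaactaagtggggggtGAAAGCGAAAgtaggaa
In Tapbp, overlapping ISRE cores ran from -26 to -11 and a κB form from -61 to -52. In Psmb10, ISRE cores lay at -73 to -64 and -17 to -8, and the only MEF2 consensus found among the 9 windows lay at -229 to -220.

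Erap1, the trimming peptidase, moved least of the genes called. It stood at 7.95, 7.90 and 7.97 in the control, 8.06, 8.12 and 8.17 in the γ+ group, 7.87, 7.78 and 7.80 in the γ- group and 7.79, 7.82 and 7.96 in the 23/24 group. The γ+ arrays were highest, and the γ- arrays all lay below the control arrays. The rise in the γ+ group was 0.18 ± 0.06 (fold 1.13, adjusted p = 0.019), and the call was lost without control replicate 2 (0.069) or γ+ replicate 3 (0.072). The difference of the γ- group from control, -0.12, was not called (adjusted p = 0.24). Between the γ+ and γ- groups Erap1 differed by 0.30 (adjusted p = 0.00043) and between the γ+ and 23/24 groups by 0.26 (0.0014).

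B2m, the light chain of class I molecules, was not called in the γ+ group against control. It stood at 11.83, 11.80 and 11.76 in the control, 11.86, 11.69 and 11.79 in the γ+ group, 11.81, 11.87 and 11.83 in the γ- group and 11.89, 11.87 and 11.96 in the 23/24 group. The γ+ arrays overlapped the control arrays, and the 23/24 arrays lay above both. The γ+ difference from control was -0.02 with a 95% confidence interval of -0.12 to 0.08 (adjusted p = 0.76). Under quantile normalization it was 0.15 and called higher (adjusted p = 0.0049). The call of B2m as lower in the γ+ group than in the 23/24 group (-0.13, adjusted p = 0.03) turned to 0.01 under median centring and to 0.05 under quantile normalization. Of the 16 alternatives run for that comparison, 8 kept the call. The direction of B2m depended on how the arrays were scaled. Its window held an ISRE core at -150 to -141 and a κB form at -137 to -128.

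Cd80 had the largest change of the 9 genes. It stood at 7.13, 6.89 and 7.02 in the control, 9.48, 9.67 and 9.38 in the γ+ group, 7.33, 7.46 and 7.38 in the γ- group and 7.25, 7.51 and 7.39 in the 23/24 group. Every γ+ array lay above every other array, and every γ- and 23/24 array lay above every control array. The rise in the γ+ group was 2.50 ± 0.09 (fold 5.66, adjusted p = 4.9e-13), rank 5 from the top of the 10025 genes. The γ+ group exceeded the γ- group by 2.12 (fold 4.35, adjusted p = 4.1e-12) and the 23/24 group by 2.13 (fold 4.38, adjusted p = 3.7e-12).

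A smaller rise of Cd80 was measured in both other viral groups. The γ- group was higher than the control by 0.38 ± 0.09 (fold 1.30, adjusted p = 0.018), and that call was lost without control replicate 2 (0.078), control replicate 3 (0.05), γ- replicate 2 (0.077) or γ- replicate 3 (0.058). The 23/24 group was higher by 0.37 ± 0.09 (fold 1.29), which was not called (adjusted p = 0.22) and was called with array weights (0.0016). These groups differed by 0.01, with a 95% confidence interval of -0.17 to 0.19. By group mean, the order of its levels was γ+ first, then γ- and 23/24 without a difference beyond their spread, then control. Of γ- and 23/24, the γ- group alone was called against control in the main fit. The RefSeq promoter table holds 2 windows for Cd80, both printed for the gene of largest change: start a, upstream of which lies chr11:75797541-75797790, and start b, with chr11:75797257-75797506, both on the minus strand of chromosome 11.
Cd80 start a: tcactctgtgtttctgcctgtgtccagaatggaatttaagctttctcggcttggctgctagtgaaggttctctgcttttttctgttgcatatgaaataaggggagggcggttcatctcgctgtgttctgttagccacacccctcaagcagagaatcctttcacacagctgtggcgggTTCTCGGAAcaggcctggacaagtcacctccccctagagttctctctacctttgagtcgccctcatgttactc
Cd80 start b: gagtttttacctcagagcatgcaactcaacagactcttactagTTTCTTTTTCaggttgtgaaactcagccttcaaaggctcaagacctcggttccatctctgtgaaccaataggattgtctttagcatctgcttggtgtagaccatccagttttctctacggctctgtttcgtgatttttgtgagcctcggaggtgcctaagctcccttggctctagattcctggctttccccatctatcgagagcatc
Start a had a gamma-activated site core at -73 to -65, and start b an ISRE core at -207 to -198 on the opposite strand. The array does not tell which start was used, and other starts of Cd80 were not read here.

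Over the 9 RefSeq windows of 300 bases that the table held for 8 of the genes, the ISRE core was found for 7 genes, all but Psmb9, where 3.92% of 33469 rat windows of the same length held it. A κB form was found for 3 genes (Tap1, Tapbp and B2m), where 1.53% of windows held it. A gamma-activated site core was found for Psmb8, at -245 to -237, and Cd80, where 8.87% of windows held it. The MEF2 consensus was found for Psmb10 alone, where 3.29% of windows held it. In Psmb8 the ISRE core spanned the start itself, from -4 to 5. A match is a description of the letters in these windows; sequence outside them was not searched for the other genes, and no match was tested as a binding site.

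**Figure D4:**
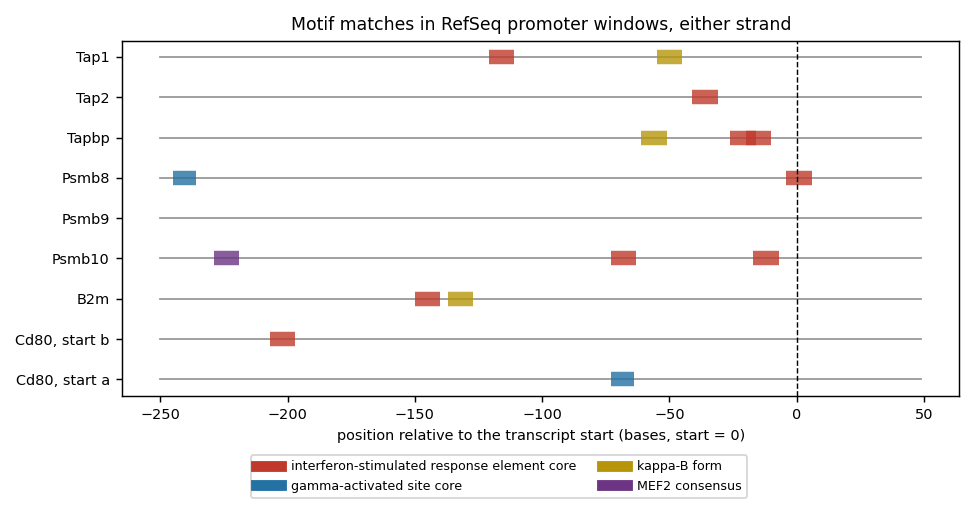
Positions of the motif matches, on either strand, in the RefSeq windows from 250 bases before to 50 bases after the transcript start (0, dashed). The ISRE core (red) appears in the windows of 7 genes and is missing from Psmb9 and from start a of Cd80.

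Other genes of the pathway were read from lists. Of 16 tested genes for class I heavy chains and related molecules, 10 were higher and 1 lower in the γ+ group against control (median 0.29), where 26.2% of all genes were higher and 38.7% lower. The list had the same counts under median centring and quantile normalization. RT1-CE5 rose by 1.21 ± 0.10, RT1-N3 by 1.01 ± 0.11, RT1-CE10 by 0.64 ± 0.10 and RT1-S3 by 0.45 ± 0.08 (log2, SE). Rat class I genes can be alike in sequence, which was not compared here, so their probe sets may share signal. Of 43 listed genes 29 had a probe set of their own. The gene that fell, Fcgrt, at -1.01, encodes the neonatal Fc receptor, which pairs with β2-microglobulin and does not present peptides. In the γ- group 1 of the 16 was higher, RT1-CE16 at 0.37, where 3.06% of all genes were higher. In the 23/24 group limma called 0, as it did under both other scalings. At an unadjusted p under 0.05, 2 were higher and 1 lower in that group, where 8.97% of all genes passed in either direction.

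Of 6 tested genes on the list of proteasome activators and other immunoproteasome factors, 4 were higher and 0 lower in the γ+ group against control, where 26.2% of all genes were higher, and under quantile normalization 6 were higher. Ube2l6, an enzyme of the ISG15 ubiquitin-like pathway and no activator, rose by 0.99 ± 0.09. The activator genes Psme2, a subunit of the interferon-inducible PA28 cap, Psme4 and Psme3 rose by 0.43 ± 0.06, 0.43 ± 0.07 and 0.25 ± 0.05. Psme1, the partner of Psme2 in that cap, was at 0.09 (adjusted p = 0.24), and Pomp, an assembly factor, at 0.05 (adjusted p = 0.52). Of 6 peptidases, 2 were higher, Blmh at 0.56 and Thop1 at 0.44, and 2 were lower, Lap3 at -0.36 and Ide at -0.18, shares near those of all genes (26.2% higher and 38.7% lower). Ide lost its call under both other scalings and Tpp2 was then called higher.

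A list of 10 genes for class I folding and loading, most of them general chaperones or enzymes of the endoplasmic reticulum, had 1 gene higher and 3 lower in the γ+ group (median -0.03), where 26.2% of all genes were higher and 38.7% lower, with 2 and 2 under median centring and 3 and 2 under quantile normalization. The higher gene was Hspa5, the chaperone BiP, at 0.15. The lower genes were no chaperones: Sec61a1 (-0.16, not called under either other scaling) and Sec61b (-0.34) belong to the translocon, and Lnpep (-0.90) is a peptidase of endosomal cross-presentation. Calr (calreticulin) was at -0.11, Canx (calnexin) at 0.04 and Pdia3 (ERp57) at 0.09, none of them called on the deposited scale; Pdia3 was called higher under both other scalings and Canx under quantile normalization. Tapbpl, the tapasin-related gene, was at 0.07 (adjusted p = 0.49).

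Among 24 genes for interferon receptors, their kinases and factors acting on class I promoters, 13 were higher and 7 lower in the γ+ group against control, where 26.2% of all genes were higher and 38.7% lower (14 and 3 under median centring, 13 and 6 under quantile normalization). Irf7, a factor of the type I interferon response, rose by 2.04 ± 0.07, Stat2 by 0.88 ± 0.06 and the coactivator Crebbp by 0.66 ± 0.08. The subunits of the RFX factor, which binds class I and class II promoters, went both ways: Rfx5 and Rfxank rose by 0.42 and 0.30, and Rfxap was lower at -0.23, a call lost under median centring. Receptor and kinase genes were lower, with Ifngr1 at -0.68, Ifnar1 at -0.47 and Jak1 at -0.46. The interferon genes Ifng and Ifnb1 did not pass the filter, with means over all arrays of 3.73 and 3.05. In the γ- group limma called 0 of the 24 against control, and quantile normalization called 1 higher, Irf7, and 1 lower, Ifnar1. At an unadjusted p under 0.05, 3 were higher and 7 lower there, where 22.8% of all genes passed in either direction. In the 23/24 group limma called 0, as under both other scalings. At an unadjusted p under 0.05, 2 were higher and 1 lower there, where 8.97% of all genes passed.

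In the γ+ group against control, most tested genes of a mixed list of co-stimulatory and co-inhibitory ligands and receptors were lower. Class II presentation genes were called at about the share of all genes. Of 7 tested class II genes, 2 were higher (Ifi30 at 0.34 and RT1-DMa at 0.27) and 3 lower (Ctss at -0.56, Lgmn at -0.55 and RT1-DMb at -0.50), where 26.2% of all genes were higher and 38.7% lower. Ctss and RT1-DMb had γ+ means of 4.72 and 4.8, near the filter cutoff of 4.78. The class II activator Ciita and the chains RT1-Da, RT1-Db1, RT1-Ba and RT1-Bb lay below the filter. Of 11 tested co-stimulatory and co-inhibitory genes, 1 was higher and 8 lower (median -0.40), beside the same 26.2% and 38.7% of all genes, with the same counts under both other scalings. Pvr, a ligand of the nectin family, rose by 0.35, and Tnfrsf9 (-0.98), Cd28 (-0.79), Nectin2 (-0.74) and Cd48 (-0.68) fell. Cd40 changed by -0.49, and Cd86, the other ligand of CD28, did not pass the filter (mean 4.03). In the γ+ group Tnfrsf9, Cd28 and Cd40 had means of 5.01, 4.83 and 4.77, near the filter cutoff of 4.78. The γ+ means of Nectin2 and Cd48 were 6.93 and 8.82. In the γ- group Tnfrsf9 (-0.51) and Cd276 (-0.23, a call lost under median centring) were lower than in the control, where 3.88% of all genes were.

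**Figure D5:**
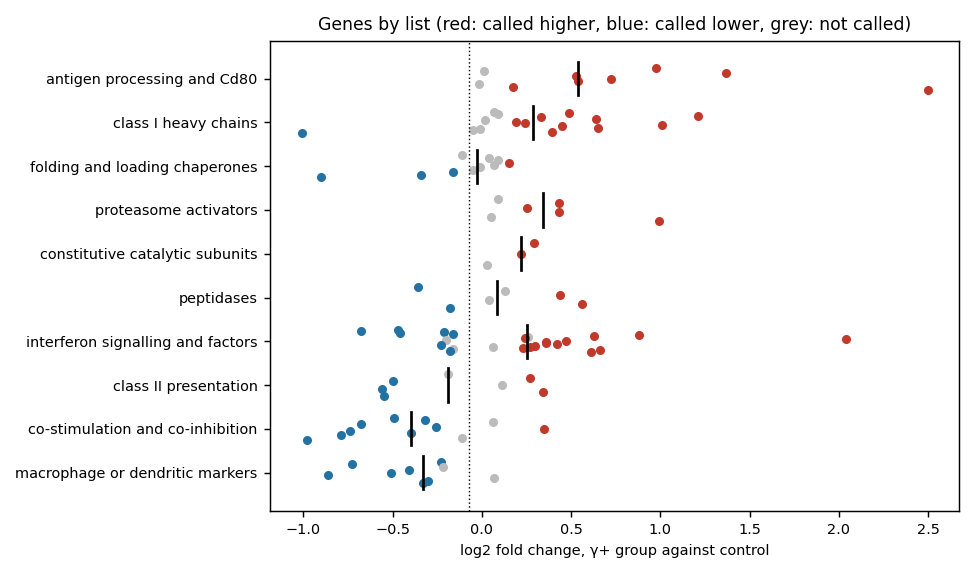
Log2 fold change of each tested gene in the γ+ group against control, by list, with the list's median as a black bar and the median of all genes, -0.07, as a dotted line. The antigen processing genes and Cd80 (top) have a median of 0.54 and the list of co-stimulation and co-inhibition one of -0.40.

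Among markers of cells that commonly carry CD80, none was called higher in the γ+ group against control. The log2 of the summed level of 17 macrophage or dendritic cell markers ranged over the control arrays from 10.28 to 10.39 and over the γ+ arrays from 9.82 to 9.89. The γ- arrays spanned 10.19 to 10.28 and the 23/24 arrays 10.31 to 10.38. Of the 9 above the filter, 7 were lower and 0 higher in the γ+ group against control (5 lower under median centring and 6 under quantile normalization), where 38.7% of all genes were lower, among them Laptm5 at -0.86 and Cd14 at -0.73. Set against the γ- group, the γ+ group had 5 of the 9 lower and 1, C1qb, higher at 0.42 (adjusted p = 0.00085). Of the same 9, 3 were lower in the γ- group than in the control, where 3.88% of all genes were: Laptm5 (-0.46), C1qb (-0.36) and Cd53 (-0.30, a call lost under median centring). Ptprc, Adgre1, Itgam and Flt3 lay below the filter. Lymphocyte markers had 2 of 14 above the filter, with Cd3e, Cd8a and Ms4a1 below it, and a summed level of 8.14 to 8.24 in the control and 8.04 to 8.13 in the γ+ group.

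The tested genes whose pattern over the 12 arrays was nearest, by the root mean square difference after each gene's control mean was subtracted, were listed for 4 of the genes. For Cd80 they were Cxcl10 (0.13 log2), a chemokine, E2f7 (0.167), a cell cycle repressor, and Gbp5 (0.176), an interferon-induced GTPase, at 2.46, 2.35 and 2.27 in the γ+ group against control. For Tap1 they were Zc3hav1 (0.087), the zinc-finger antiviral protein, Srsf7 (0.090), a splicing factor, and Gpr19 (0.099). For Psmb8 they were Lpxn (0.089), Rnaseh2b (0.095) and Tbc1d24 (0.132), at -0.39, -0.35 and -0.22 in the γ- group against control, where Psmb8 was at -0.37. For B2m they were Mrpl4 (0.047), Cdk5rap3 (0.049) and Gbe1 (0.051).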

How the data were processed

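RNA levels were the deposited values of 12 Affymetrix rat gene arrays, taken as log2 and given in 1 table. Per the submitters' processing notes the tool was MAS5, with no version. The values span 1.09 to 13.89, the range of log2 intensities; how they were background-corrected, summarized, logged and normalized is not given in the sources used here. Depth does not apply to arrays, and their number limits the precision.

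The probe table gave 1 gene symbol for 15209 of 28826 probe sets, several for 306 and none for 13311. Symbols were updated through Entrez identifiers in the RefSeq table of GRCr8. Probe sets at or below the 40th percentile of the mean over all arrays (4.78) were left out. The probe set of highest mean stood for a gene, giving 10025 genes.

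Groups came from the sample titles. Each gene was fitted with 1 mean per group over all arrays (limma 3.58.1, R 4.3.3; lmFit, then eBayes with trend; 8 residual degrees of freedom), with Benjamini-Hochberg adjustment over all genes within each of 6 comparisons. The procedure was tested on simulated data. The genes followed and the gene lists were chosen with earlier results of these data known. Named were all 10 genes, per list at most 4 called genes by adjusted p and those going against the rest, and the 3 genes of nearest pattern; the motifs and the rule for promoters came with these. Genes named outside the rule, such as Psme1, Pomp, Tapbpl, Rfx5, Rfxank, Cd276 and Cd86, were chosen after their values were seen. Promoter windows were RefSeq's (GRCr8), searched on both strands; no window was listed for Erap1. Alternatives were other scalings, filters, variance priors, probe set means, array weights, a replicate block, the compared arrays alone and leaving out each array.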

Additional observations from a re-analysis of the deposited data

How the results depend on the processing

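The counts of called genes in the γ+ group against control and against the 23/24 group stayed within 1.5 times their values under every alternative run. In the γ- group against control, the count of 1 became 2 with array weights (Cd80 higher and Psmb8 lower) and 0 to 1 when an array was left out. In the 23/24 group against control, 0 became 1 with array weights. In the γ+ group against the γ- group, 8 became 5 at the 60th percentile filter, which leaves Tap2, Psmb8 and Psmb9 untested, so that 6 genes remained to be tested; the F test over all groups likewise went from 8 to 5. In the γ- group against the 23/24 group, 1 became 0 under median centring, quantile normalization, the 60th percentile filter and the replicate block, 2 with array weights and with the 6 compared arrays alone, and 0 to 1 when an array was left out. The direction of B2m in the γ+ group against the 23/24 group turned, to 0.010 under median centring (adjusted p = 0.90) and 0.052 under quantile normalization (0.29).

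The replicate numbers do not pair the arrays: over 18 pairs of same-numbered arrays of different groups, the correlation of deviations from the group means ran from -0.223 to 0.124, and 1 pair exceeded 0.1. With replicate number as a block, the counts were 7 in the γ+ group against control, 1 in the γ- group, 0 in the 23/24 group, 8 in the γ+ group against the γ- group and 8 against the 23/24 group; the block took away the call of Tap2 in the γ- group against the 23/24 group and no other count changed. The ratio comparisons were repeated under quantile normalization, an alternative chosen after seeing the data. In the γ+ group they gave 0.92 for Tap1 to Tap2, 0.27 for Psmb8 to Psmb5, 0.51 for Psmb9 to Psmb6 and 0.46 for Psmb10 to Psmb7. In the 23/24 group Psmb9 to Psmb6 went from 0.09 to 0.04, and Psmb8 to Psmb5 changed sign, from 0.06 to -0.05. With 3 arrays per group, changes such as that of Erap1 depend on single arrays.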
